A study of Mus musculus with 16 samples.

Results

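The proteasome genes of mouse brown adipose tissue are described here across 16 RNA sequencing libraries. The set comprised every gene whose symbol begins with Psma, Psmb, Psmc, Psmd, Psme, Psmf or Psmg, together with Pomp, Nfe2l1 and Adrm1. Pseudogenes were left out, and no measured value entered the choice. Of 54 such protein-coding genes, 52 were among the 15350 genes in the deposited values. Psma8 and Psmb11, which are restricted to testis and thymus in the mouse, were not analysed here. The 52 genes were 32 subunits of the constitutive particle, 5 immunoproteasome genes, 5 genes of other activators, their relatives and an inhibitor, 8 assembly factors, the transcription factor gene Nfe2l1, and Psmc3ip, which shares the prefix but encodes a meiotic recombination factor.

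All mice were C57BL/6J and carried an Alzet osmotic minipump, and interscapular brown fat was taken after 3 days. The 4 groups of 4 libraries were Ucp1-knockout mice given isoproterenol at 60 mg/kg/day (KO isoproterenol), Ucp1-knockout mice given saline (KO saline), wild-type mice given the same isoproterenol dose (WT isoproterenol) and wild-type mice given saline (WT saline). Isoproterenol is a beta-adrenergic agonist that activates brown adipocytes, and Ucp1 encodes the uncoupling protein through which these cells make heat. The stated purpose was to follow brown fat activation with and without Ucp1. The labels do not give the knockout allele, the age or the sex of the mice, nor whether each library came from a separate animal, so the p-values measure the spread between these libraries, which may be technical.

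The 26S proteasome degrades proteins tagged with ubiquitin. Its 20S core is a barrel of alpha rings (Psma genes) around beta rings (Psmb genes), in which Psmb5, Psmb6 and Psmb7 carry the proteolytic sites, and its 19S cap of ATPases (Psmc genes) and non-ATPases (Psmd genes and Adrm1) binds, unfolds and de-ubiquitinates substrates. In the immunoproteasome, interferon-inducible Psmb8, Psmb9 and Psmb10 replace Psmb5, Psmb6 and Psmb7, and the PA28 activator encoded by Psme1 and Psme2 can take the place of the cap. Nfe2l1, also called Nrf1, is the transcription factor that raises constitutive subunit genes when proteasome capacity is short, and in brown fat it has been tied to adaptation to cold.

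Sequencing depth was 9004515 to 20986735 reads per library over the listed genes, and every one of the 52 genes averaged more than 1 count per 1e6 reads (CPM, with the prior count of the deposited values included). Ucp1 itself measured 18.96, 268, 848 and 2129 CPM in KO isoproterenol libraries 1 to 4 and 1118, 588, 1156 and 409.8 CPM in KO saline libraries. It measured 8905, 11662, 17655 and 18458 CPM in WT isoproterenol libraries and 2298, 3449, 3219.7 and 3339 CPM in WT saline libraries. Every KO library was thus below every WT library of the same treatment, although Ucp1 reads remained in the KO and the highest KO isoproterenol value stood just under the lowest WT saline value. By adipocyte and macrophage markers the KO isoproterenol libraries differed most among themselves. The summed CPM of 10 adipocyte markers was 3626, 11576, 18364 and 35418 in KO isoproterenol replicates 1 to 4. The KO saline libraries held 21074 to 22454, the WT isoproterenol libraries 21735 to 24165 and the WT saline libraries 19646 to 22041. The corresponding sum of 10 macrophage markers was 3562, 1278, 3176 and 768 CPM in KO isoproterenol libraries, while the KO saline libraries held 221 to 377, the WT isoproterenol libraries 401 to 654 and the WT saline libraries 165 to 355 CPM. None of these markers was at 0 reads in any library. By the sum of 7 skeletal muscle markers the WT libraries spread widest. WT saline libraries held 5.19 to 6697 CPM and WT isoproterenol libraries 5.26 to 2210 CPM. KO saline libraries held 5.23 to 597 CPM, with 1 marker at 0 reads in a library, and KO isoproterenol libraries 5.26 to 515 CPM. The part of muscle in the differences below was not tested. In bulk tissue a change in the number of cells of a type cannot be told apart from a change in RNA per cell.

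In WT saline libraries the mean level per kilobase of transcript ranged over the 32 genes from 30.1 CPM per kb for Psmd1, the large 19S scaffold subunit, to 195 CPM per kb for the alpha ring gene Psma6. Each inducible catalytic gene lay below the constitutive gene whose product it replaces: 13.1 CPM per kb for Psmb8 against 82.7 for Psmb5, 18.3 for Psmb9 against 168 for Psmb6, and 32.5 for Psmb10 against 72.3 for Psmb7. Psme1 stood at 176 and Psme2 at 113 CPM per kb in the same libraries, within the range of the constitutive genes.

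With isoproterenol in KO mice, 5 of 14 constitutive 20S genes and 10 of 18 19S genes rose. Of the 32 constitutive genes, 15 were thus higher in KO isoproterenol than in KO saline libraries at an adjusted p under 0.05 (limma, Benjamini-Hochberg over 15350 genes), and none was lower. The median log2 fold change of the 32 was 0.29, beside -0.0021 over all genes. Of all genes, 23.8% were called higher and 24.8% lower in this comparison, 48.6% in all. Over the 52 genes the count was 22, a share close to the 48.6% of all genes. By direction 19 were higher, a larger share than the 23.8% of all genes, and 3 lower, a smaller share than the 24.8%. By part of the particle, 4 of 7 alpha ring genes rose, 1 of 7 beta ring genes (Psmb4, a structural subunit, 0.42), 2 of 6 ATPases and 8 of 12 non-ATPases. The constitutive count was 7 when only the KO libraries were fitted, a fit whose share over all genes is not given here. The calls of Psma1, Psma2, Psma7, Psmb4, Psmd1, Psmd6, Psmd11 and Psmd12 were then lost (adjusted p = 0.0613 to 0.146). The Psmb4 call was lost without KO isoproterenol replicate 2 or KO saline replicate 1, 2 or 3 (adjusted p = 0.0558 to 0.0927) and with the WT libraries paired by number (adjusted p = 0.0625).

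Psma5, an alpha ring subunit, had the highest difference of the constitutive genes. It measured 64.3, 134, 87.3 and 82.3 CPM in KO isoproterenol libraries, against 42.2, 38.1, 43.7 and 50.3 CPM in KO saline libraries. Every KO isoproterenol library lay above every KO saline library, and the log2 fold change was 1.03 (SE 0.17, adjusted p = 0.00019). Psmd2, a scaffold of the 19S base that docks ubiquitin shuttles and Usp14, measured 251, 392, 272 and 334 CPM in KO isoproterenol and 189, 173, 204 and 191 CPM in KO saline libraries, again without overlap, a log2 fold change of 0.70 (SE 0.14, adjusted p = 0.000851). Psmd14, the deubiquitinase of the cap, measured 86.4, 114, 94.7 and 94.3 CPM in KO isoproterenol and 58.1, 66.6, 56.1 and 72.9 CPM in KO saline libraries, with no overlap and a log2 fold change of 0.62 (SE 0.11, adjusted p = 0.00035). Its partner in the cap, Psmd7, had a log2 fold change of 0.65 (SE 0.12, adjusted p = 0.000533). The alpha ring gene Psma1 had 0.63 (SE 0.20, adjusted p = 0.0166), which missed the threshold with only the KO libraries fitted (adjusted p = 0.0954). The ATPase gene Psmc1 and the lid gene Psmd11 followed at 0.55 and 0.58. The Psmd11 call was lost in the same fit (adjusted p = 0.0732). At the other end, Psmd8, a lid subunit, had a log2 fold change of -0.29 (SE 0.14, adjusted p = 0.114), and Adrm1, the ubiquitin receptor also known as Rpn13, -0.0041 (SE 0.15, adjusted p = 0.985). The lowest value in the alpha ring was that of Psma6, 0.079, and among the ATPases that of Psmc6, 0.042.

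The other 8 constitutive genes that rose in KO libraries had smaller differences. The alpha ring genes Psma7 (0.49) and Psma2 (0.37), the ATPase gene Psmc2 (0.48), the scaffold gene Psmd1 (0.39) and the lid genes Psmd13 (0.37), Psmd12 (0.36) and Psmd6 (0.35) passed, besides Psmb4. The Psmd1 call was lost without KO isoproterenol replicate 2, 3 or 4 or KO saline replicate 2, 3 or 4 (adjusted p = 0.0653 to 0.0993), that of Psmd12 without KO isoproterenol replicate 2, 3 or 4 or KO saline replicate 1, 2 or 3 (adjusted p = 0.0631 to 0.0956), that of Psma7 without KO saline replicate 1 or 2 (adjusted p = 0.0538 to 0.0544) and that of Psmd6 without KO saline replicate 2 (adjusted p = 0.0612). With the WT libraries paired by number the adjusted p of Psmd12 was 0.0663. The 17 constitutive genes that did not pass ranged between the Psmd8 value above and that of Psmc4, 0.32 (SE 0.15, adjusted p = 0.0976); the ubiquitin receptor gene Psmd4 had 0.25 (SE 0.22, adjusted p = 0.36) and the structural beta ring genes Psmb1, Psmb2 and Psmb3 had 0.27, 0.15 and 0.13.

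The KO isoproterenol libraries did not move together. The 32 constitutive genes summed to 3559, 5435, 4412 and 5076 CPM in KO isoproterenol replicates 1 to 4, against 3653, 3396, 3691 and 4067 CPM in KO saline libraries. Replicate 1, which had the highest macrophage and the lowest adipocyte marker sums, had the lowest constitutive sum of its group and lay within the KO saline range; the other 3 lay above it. Without replicate 1, 21 of the 32 constitutive genes were called higher and their median was 0.45. Over all genes, leaving out any 1 library of this comparison gave 6650 to 8313 calls, against 7460 with all libraries. The part of cell composition in the difference between KO isoproterenol and KO saline libraries was not tested.

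**Figure D1:**
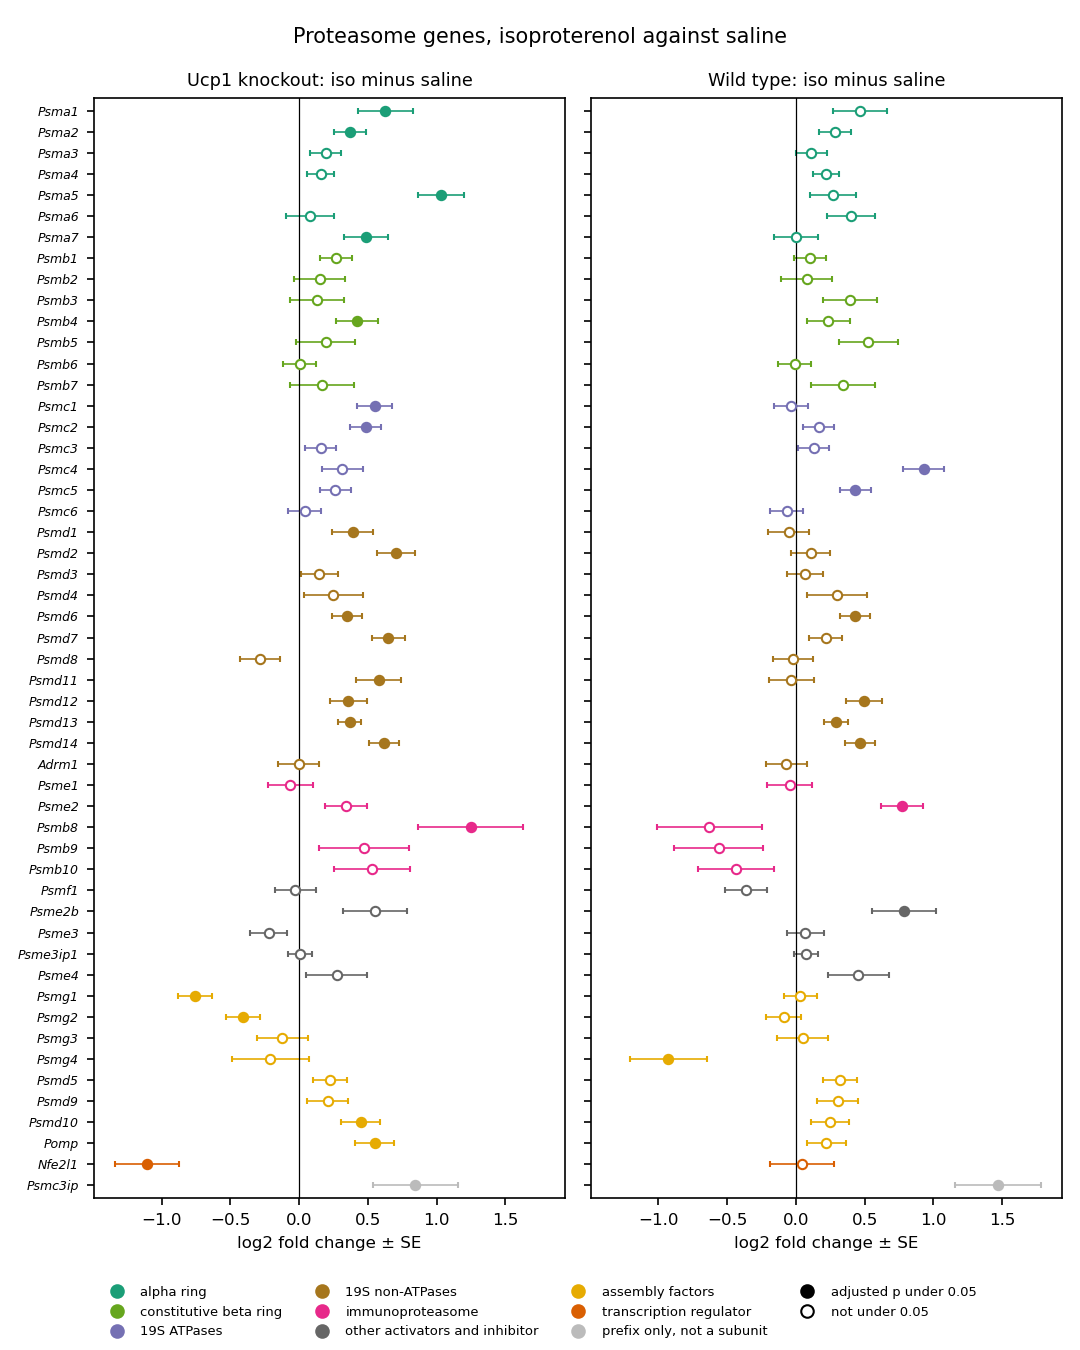
Log2 fold change (horizontal axis, ± SE) of each of the 52 proteasome genes for isoproterenol against saline, in Ucp1-knockout (left) and wild-type (right) libraries, coloured by role and filled where the adjusted p was under 0.05. Constitutive genes lie mostly right of 0 in both panels, whereas Psmb8, Psmb9 and Psmb10 lie right of 0 in the knockout and left of 0 in the wild type, where none of the 3 passed the test.

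In WT mice 6 constitutive genes rose with isoproterenol. Of the 32 constitutive genes, 6 were higher in WT isoproterenol than in WT saline libraries and none was lower, and the 6 were all 19S genes; 0 of the 14 constitutive 20S genes passed, although 5 of them had an unadjusted limma p under 0.05, as had 30.4% of all genes. The median log2 fold change of the 32 was 0.22, beside -0.018 over all genes. It was 0.25 for the constitutive 20S genes, 13 of 14 being above 0, and 0.15 for the 19S genes, 12 of 18 being above 0. The calls in 19S genes alone therefore do not show a larger response of that part. Over the 52 genes 10 were called, a share close to the 16.6% of all genes. By direction 9 were higher, a larger share than the 7.6% of all genes, and 1 lower, a smaller share than the 8.98%. The constitutive sum was 3833, 3882, 3707 and 4089 CPM in WT isoproterenol libraries and 3262, 3447, 3323 and 3306 CPM in WT saline libraries, which did not overlap. The constitutive count was 1, that of Psmc4, with libraries scaled by their totals. It was 13 with only the WT libraries fitted, including 4 alpha ring and 2 beta ring genes. With library quality weights it was 14, including 5 alpha ring and 2 beta ring genes. Calls over all genes, 2546 in the main fit, also rose in both of these fits, by the counts given in the closing section.

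Psmc4, an ATPase of the cap, had the highest difference of the constitutive genes in WT mice. It measured 157, 151, 144 and 167 CPM in WT isoproterenol libraries, against 82.8, 82.3, 77.8 and 81.6 CPM in WT saline libraries. The groups were far apart, with a log2 fold change of 0.93 (SE 0.15, adjusted p = 0.00102). The other 5 were the lid genes Psmd12 (0.50), Psmd14 (0.46), Psmd6 (0.43) and Psmd13 (0.29) and the ATPase gene Psmc5 (0.43). With same-numbered WT libraries paired, the call of Psmd13 was lost (adjusted p = 0.0581, limma), as it was without WT isoproterenol replicate 2 or 4 or WT saline replicate 1, 2, 3 or 4 (adjusted p = 0.0517 to 0.0901). The call of Psmd12 was lost without WT isoproterenol replicate 3 or 4 or WT saline replicate 3 (adjusted p = 0.0527 to 0.0574), that of Psmd6 without WT isoproterenol replicate 4 or WT saline replicate 3 (adjusted p = 0.0509 to 0.0591) and that of Psmc5 without WT isoproterenol replicate 2 (adjusted p = 0.0575). Of the 9 genes called higher in WT mice, 5 were also called higher in KO mice, namely Psmd6, Psmd12, Psmd13, Psmd14 and Psmc3ip. The highest values that missed the threshold were those of Psmb5 (0.53, SE 0.21, adjusted p = 0.109) and Psma1 (0.46, SE 0.20, adjusted p = 0.126). Psmb5 passed with only the WT libraries fitted (adjusted p = 0.00461) and with library quality weights (adjusted p = 0.00326), and the lowest constitutive value was that of Adrm1, -0.068.

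Under saline none of the 52 was called between KO saline and WT saline libraries by limma, where 0.0977% of all genes were, and 3 had an unadjusted p under 0.05, against 6.91% of all genes; with library quality weights 2 were called. The 3 were Psmc4 (0.40, SE 0.15, adjusted p = 0.61), the PA28-gamma gene Psme3 (0.31, SE 0.14, adjusted p = 0.655) and the ATPase gene Psmc2 (0.25, SE 0.11, adjusted p = 0.686). Small positive values prevailed: 49 of the 52 estimates were above 0, with a median of 0.11 beside -0.0035 over all genes. The lowest was that of Psmb8, -0.13. In the same limma fit Ucp1 itself was not called between KO saline and WT saline libraries (-2.02, SE 0.98, adjusted p = 0.742), although its groups did not overlap. A missing call in this comparison therefore does not show equal levels.

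Under isoproterenol 17 of the 52 genes differed between KO and WT libraries, a smaller share than the 44.6% of all genes. In KO 15 were higher, a larger share than the 21.6% of all genes, and 2 lower, a smaller share than the 23.1%. Of the 15, 10 were constitutive, led by Psma5 (0.92, SE 0.17, adjusted p = 0.000554), Psmd11 (0.74, SE 0.17, adjusted p = 0.00225), Psmc1 (0.68, SE 0.13, adjusted p = 0.00062) and Psmd2 (0.64, SE 0.14, adjusted p = 0.00204). The median over the 32 constitutive genes was 0.19, beside 0.015 over all genes. Of the 7 constitutive beta ring genes none passed, with log2 fold changes from -0.043 for Psmb3 to 0.30 for Psmb4. Without KO isoproterenol replicate 1 the constitutive count was 16, and with libraries scaled by their totals it was 22. Over all genes, leaving out any 1 library of this comparison gave 5781 to 7709 calls, against 6853 with all libraries. Scaling by totals put the median of all genes at 0.27. With only the KO and WT isoproterenol libraries fitted, 9 of the 52 genes were called, and the share over all genes is not given here. The constitutive count was then 7, without Psma7 (adjusted p = 0.0679), Psmd13 (0.131) and Psmd14 (0.0861).

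Whether the isoproterenol response differed between genotypes was tested as an interaction, the KO difference minus the WT difference. Of the 52 genes 7 passed, a smaller share than the 24.7% of all genes, 10.9% higher and 13.8% lower. Psmb8 (1.88, SE 0.54, adjusted p = 0.0217), Psma5 (0.76, SE 0.24, adjusted p = 0.0307), Psmd2 (0.59, SE 0.20, adjusted p = 0.0395) and Psmc1 (0.58, SE 0.18, adjusted p = 0.0271) had the larger difference in KO mice. Nfe2l1 (-1.15, SE 0.33, adjusted p = 0.0211), Psmg1 (-0.79, SE 0.17, adjusted p = 0.0063) and Psmc4 (-0.61, SE 0.21, adjusted p = 0.0482) had the lower one. With the WT libraries paired by number, 3 of the 7 passed, namely Psmb8 (adjusted p = 0.0329), Nfe2l1 (0.0432) and Psmg1 (0.0178). The adjusted p of Psma5 was then 0.0624, that of Psmd2 0.0724, that of Psmc1 0.0589 and that of Psmc4 0.0886. The Psmb8 call was also lost without WT isoproterenol replicate 4 (adjusted p = 0.0506). The Psmc1 call was lost without KO saline replicate 2 or WT saline replicate 3 or 4 (adjusted p = 0.0503 to 0.0552), that of Psma5 without KO saline replicate 1 or 2 or WT isoproterenol replicate 3 or 4 or WT saline replicate 1 or 2 (adjusted p = 0.0517 to 0.0622), that of Psmd2 without any 1 of 11 of the 16 libraries (adjusted p = 0.0523 to 0.0778) and that of Psmc4 without any 1 of 13 of the 16 libraries (adjusted p = 0.0533 to 0.0963). With libraries scaled by their totals the Psmc4 interaction was -0.32 (adjusted p = 0.274). The calls of Nfe2l1 and Psmg1 held without any 1 library. The median interaction over the constitutive genes was 0.079, near the 0.044 of all genes, and that over the 5 immunoproteasome genes was 0.96. These 5 were split, 3 being above 0 and 2 below, from -0.43 for Psme2 to 1.88 for Psmb8, the only 1 called.

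**Figure D2:**
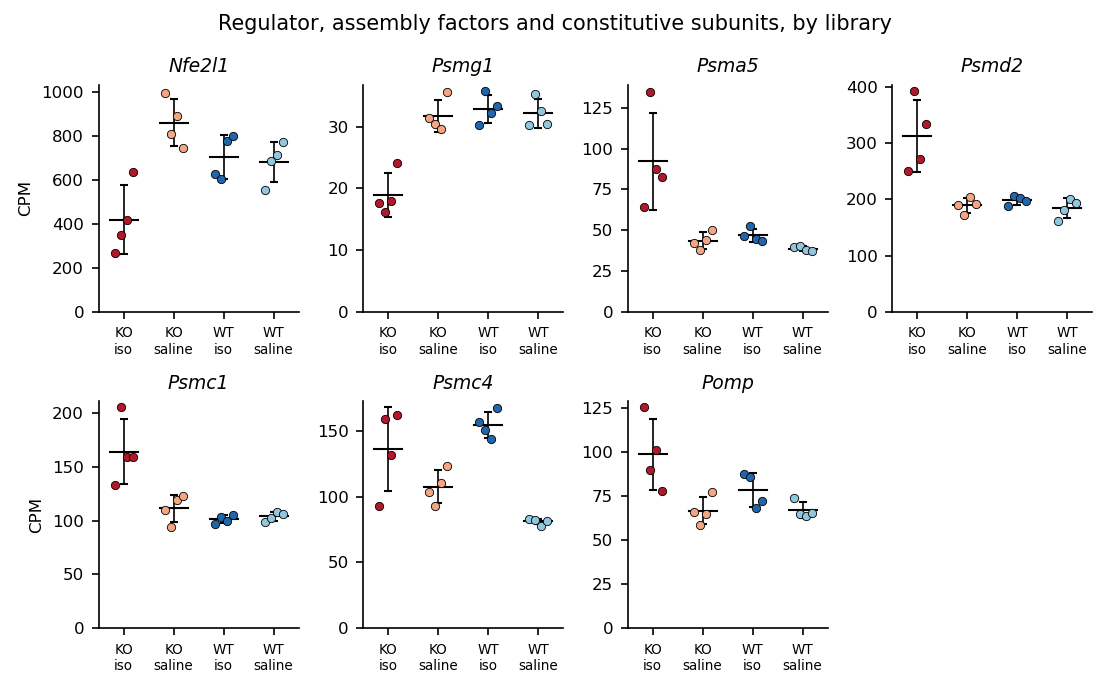
CPM (vertical axis) of 7 genes in each library of the 4 groups; points are libraries 1 to 4 from left to right, long bars the mean and error bars the SD. On average Psmc4 is highest in WT isoproterenol libraries, while Nfe2l1 and Psmg1 are lowest and Psma5 and Psmd2 highest in KO isoproterenol libraries.

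Of the inducible catalytic subunits, Psmb8 rose with isoproterenol in KO mice, and all 3 were higher in KO than in WT mice under isoproterenol, although Psmb9 and Psmb10 not in every fit. Psmb8, the inducible counterpart of Psmb5, measured 100.1, 29.7, 47.5 and 30.7 CPM in KO isoproterenol libraries, against 13.99, 13.03, 25.00 and 29.8 CPM in KO saline libraries. It measured 20.8, 15.9, 11.3 and 8.997 CPM in WT isoproterenol libraries, against 27.4, 22.4, 20.3 and 15.5 CPM in WT saline libraries. KO isoproterenol replicate 1 was the highest of all 16 libraries, and the KO isoproterenol group overlapped the KO saline group narrowly but not the WT isoproterenol group. The log2 fold change for isoproterenol was 1.25 (SE 0.38, adjusted p = 0.0138) in KO and -0.63 (SE 0.38, adjusted p = 0.289) in WT libraries, and KO exceeded WT under isoproterenol by 1.75 (SE 0.38, adjusted p = 0.00194). Without KO isoproterenol replicate 1 the KO difference was 0.87 (adjusted p = 0.0398) and the difference from WT isoproterenol 1.37 (adjusted p = 0.00357). With KO isoproterenol and KO saline libraries fitted alone, the KO call was lost (adjusted p = 0.0533).

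Psmb9, the counterpart of Psmb6, measured 77.5, 25.2, 39.9 and 22.9 CPM in KO isoproterenol and 20.2, 23.5, 30.7 and 33.03 CPM in KO saline libraries. It measured 23.4, 19.6, 12.6 and 12.8 CPM in WT isoproterenol and 30.4, 24.9, 24.3 and 19.1 CPM in WT saline libraries. All of these groups overlapped, and isoproterenol differences were 0.47 (SE 0.33, adjusted p = 0.247) in KO and -0.56 (SE 0.33, adjusted p = 0.265) in WT libraries. Under isoproterenol Psmb9 was higher in KO than in WT libraries by 1.15 (SE 0.33, adjusted p = 0.0102). The call was lost with only these 2 groups fitted (adjusted p = 0.0565). The lower WT value passed with library quality weights (adjusted p = 0.0399).

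Psmb10, the counterpart of Psmb7, measured 125, 49.8, 67.5 and 38.5 CPM in KO isoproterenol and 43.5, 36.02, 45.8 and 52.3 CPM in KO saline libraries. It measured 42.8, 34.7, 25.8 and 25.5 CPM in WT isoproterenol and 45.5, 43.6, 42.8 and 38.2 CPM in WT saline libraries. The isoproterenol difference was 0.53 (SE 0.28, adjusted p = 0.126) in KO and -0.43 (SE 0.28, adjusted p = 0.313) in WT libraries, and KO exceeded WT under isoproterenol by 1.01 (SE 0.28, adjusted p = 0.00797), with overlap. The call was lost with only these 2 groups fitted (adjusted p = 0.0584). Leaving out 1 library moved the KO difference between 0.20 and 0.77. It was called without KO isoproterenol replicate 4 (adjusted p = 0.0191) and with library quality weights (adjusted p = 0.0147). With these weights the lower WT value was also called (adjusted p = 0.0255). The interaction missed the threshold for Psmb9 (1.03, SE 0.46, adjusted p = 0.111) and Psmb10 (0.96, SE 0.39, adjusted p = 0.0824). Both passed with library quality weights (adjusted p = 0.0113 and 0.00259) and without KO isoproterenol replicate 4 (adjusted p = 0.0367 and 0.0142). The weights of KO isoproterenol replicates 1 to 4 were 0.167, 0.314, 3.37 and 0.263. In that group the weighted fit therefore rests mostly on replicate 3. Without KO isoproterenol replicate 1, the KO isoproterenol minus WT isoproterenol differences of Psmb9 and Psmb10 were 0.79 (adjusted p = 0.0218) and 0.69 (adjusted p = 0.0126).

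Their constitutive partners showed another order of libraries. Psmb5, the chymotrypsin-like subunit, measured 53.7, 101, 106 and 138 CPM in KO isoproterenol and 78.9, 78.7, 74.99 and 99.2 CPM in KO saline libraries. It measured 91.4, 95.6, 73.7 and 104 CPM in WT isoproterenol and 63.3, 65.9, 63.8 and 58.6 CPM in WT saline libraries. Replicate 1 was the lowest KO isoproterenol library for Psmb5, as it was for Psmb7, the trypsin-like subunit, at 58.5, 147, 101 and 139.7 CPM in KO isoproterenol and 85.6, 101, 85.7 and 103 CPM in KO saline libraries. The KO isoproterenol difference was 0.19 (SE 0.21, adjusted p = 0.476) for Psmb5 and 0.17 (SE 0.23, adjusted p = 0.578) for Psmb7. With library quality weights Psmb5 passed (adjusted p = 0.0296). Without replicate 1 both were called, at 0.47 (adjusted p = 0.0148) and 0.45 (adjusted p = 0.0388). Psmb6, the caspase-like subunit, was the steadiest of the 3, at 147 ± 6.65 CPM in KO isoproterenol, 147 ± 16.8 in KO saline, 134 ± 18.5 in WT isoproterenol and 134 ± 11.1 CPM in WT saline libraries (SD, n = 4 each), with isoproterenol differences of 0.0045 (SE 0.12, adjusted p = 0.98) in KO and -0.0098 (SE 0.12, adjusted p = 0.969) in WT libraries.

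**Figure D3:**
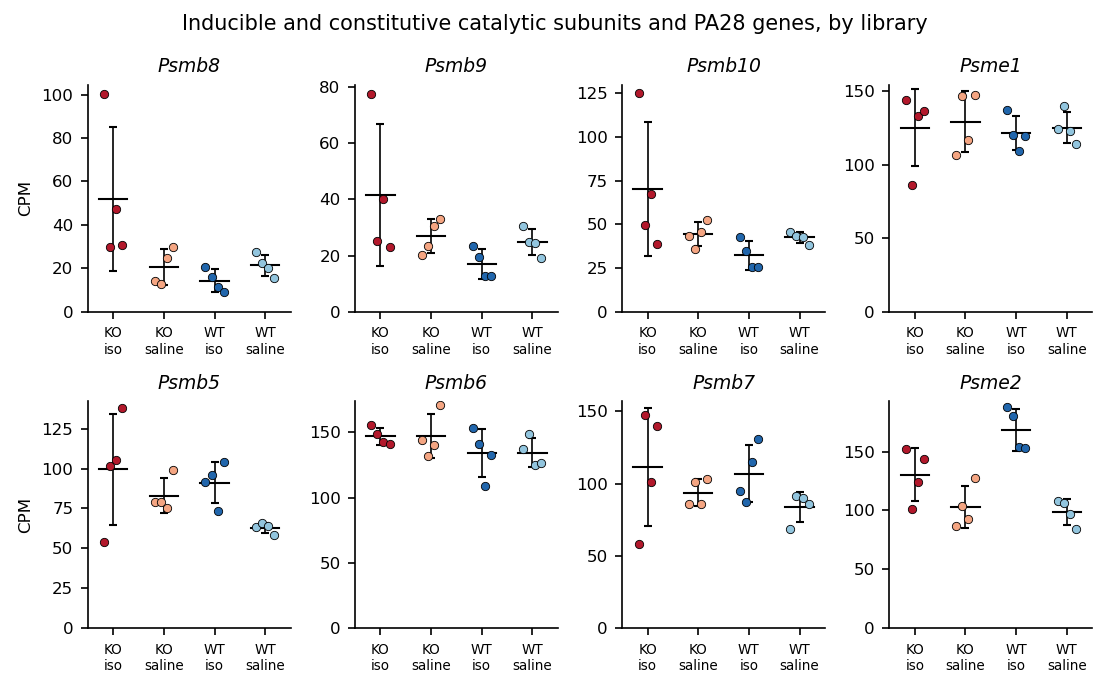
CPM (vertical axis) of the 3 inducible and 3 constitutive catalytic subunit genes and of Psme1 and Psme2 in each library of the 4 groups; points are libraries 1 to 4 from left to right, long bars the mean and error bars the SD. The first KO isoproterenol library is the highest point for Psmb8, Psmb9 and Psmb10 and the lowest in its group for Psmb5 and Psmb7.

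The ratio of an inducible subunit to the constitutive partner it replaces was taken within each library, which removes library scaling. The log2 ratio of Psmb8 to Psmb5 was 0.90, -1.77, -1.15 and -2.17 in KO isoproterenol and -2.50, -2.59, -1.58 and -1.73 in KO saline libraries. It was -2.13, -2.59, -2.70 and -3.53 in WT isoproterenol and -1.21, -1.55, -1.65 and -1.92 in WT saline libraries. In WT libraries the groups did not overlap, with a log2 difference of -1.15 (SE 0.33, exact permutation p = 0.0286, adjusted p = 0.137), while the KO difference was 1.05 (SE 0.73, exact permutation p = 0.2, adjusted p = 0.3). The Psmb9 to Psmb6 ratio was -1.003, -2.56, -1.83 and -2.62 in KO isoproterenol and -2.71, -2.85, -3.12 and -3.37 in WT isoproterenol libraries, without overlap, a log2 difference of 1.01 (SE 0.41, exact permutation p = 0.0286, adjusted p = 0.137). For Psmb10 to Psmb7 the KO isoproterenol minus WT isoproterenol difference was 1.02 (SE 0.73, exact permutation p = 0.2, adjusted p = 0.3). The tests were two-sided with 4 against 4 libraries, for which 0.0286 is the smallest p, and were adjusted over 12 comparisons of 3 ratios; none of the 12 passed 0.05 after adjustment. Corrected for transcript length, the geometric mean ratio of Psmb8 to Psmb5 was 0.226 in KO isoproterenol, 0.109 in KO saline, 0.0700 in WT isoproterenol and 0.156 in WT saline libraries.

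**Figure D4:**
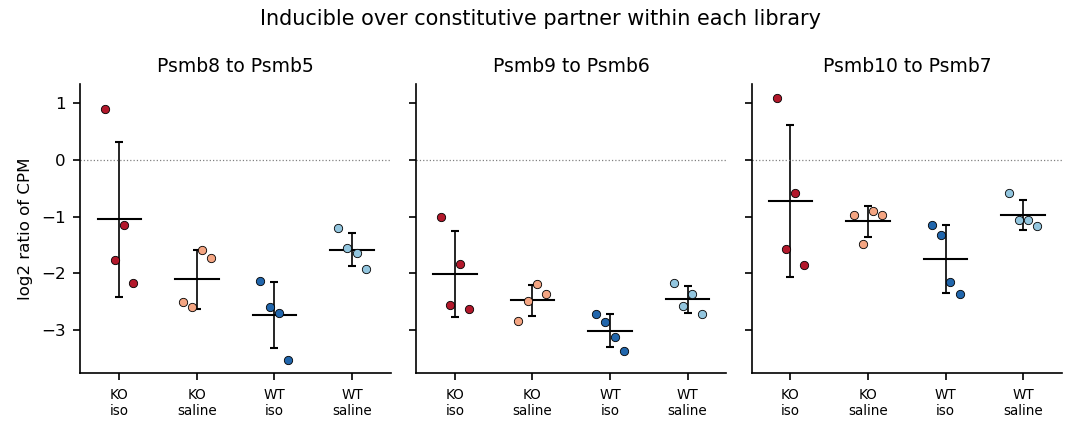
Log2 ratio of CPM (vertical axis) of each inducible catalytic subunit to its constitutive partner in each library of the 4 groups, with the mean (long bar) and SD (error bar); the dotted line marks equal CPM. The WT isoproterenol libraries have the lowest mean in each panel, and the KO isoproterenol libraries spread widest.

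The 3 inducible genes summed to 302, 105, 155 and 92.1 CPM in KO isoproterenol replicates 1 to 4, while the KO saline libraries held 72.6 to 115, the WT isoproterenol libraries 47.4 to 86.96 and the WT saline libraries 72.8 to 103 CPM. Within the KO isoproterenol group this sum had the same order over the libraries as the macrophage marker sum given above, and replicate 4, with the lowest of both, had the highest adipocyte sum. In each of the other groups the orders of the inducible and macrophage sums differed. In KO saline libraries, replicate 4 had the highest inducible sum (115 CPM) and the lowest macrophage sum (221 CPM). All 10 macrophage markers were called higher in KO isoproterenol than in KO saline libraries, as were all 7 measured neutrophil markers, whose sum was 140.1 to 530.3 CPM in KO isoproterenol and 6.49 to 8.74 CPM in KO saline libraries, and 6 of 10 adipocyte markers were called lower. Of all genes, 23.8% were called higher and 24.8% lower in this comparison. The neutrophil sum was 30.6 to 40.6 CPM in WT isoproterenol and 6.93 to 11.8 CPM in WT saline libraries, and 3 of the 7 markers were at 0 reads in some KO saline library and 2 in some WT saline library. In WT isoproterenol against WT saline libraries, 3 of 10 macrophage and 4 of 7 neutrophil markers were called higher, beside 7.6% of all genes. Psmb8, Psmb9 and Psmb10 were not called in that comparison. Of 8 measured lymphocyte markers, none was called higher and 3 were called lower in KO isoproterenol than in KO saline libraries. They summed to 3.21 to 15.7 CPM in KO isoproterenol and 10.6 to 27.4 CPM in KO saline libraries. Of these markers 1 was at 0 reads in a KO isoproterenol library. Of 6 dendritic cell markers 1 was called higher and 1 lower in KO isoproterenol than in KO saline libraries. The lymphocyte and dendritic cell counts rest on few genes and stand beside the same 23.8% higher and 24.8% lower of all genes. The part of these cells in the inducible subunit levels was not tested.

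**Figure D5:**
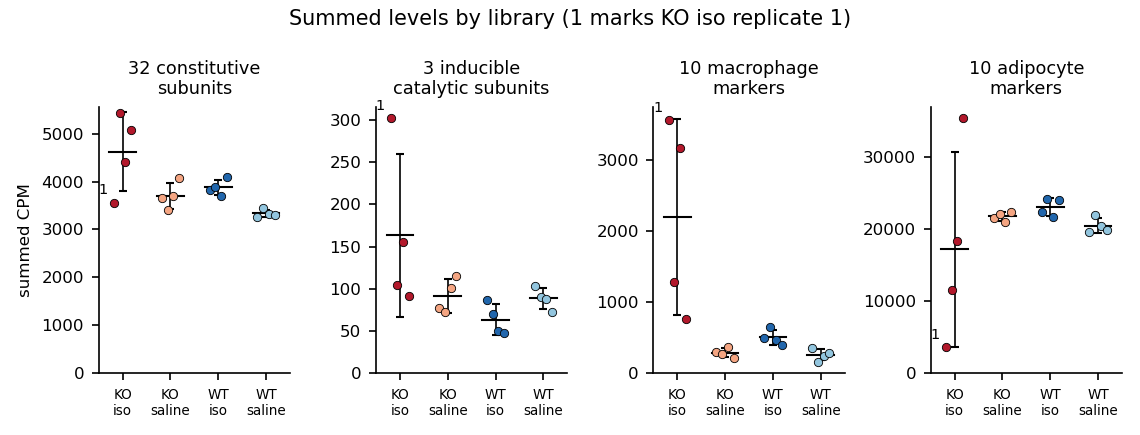
Summed CPM (vertical axes, each panel with its own scale) of the 32 constitutive subunits, the 3 inducible catalytic subunits, 10 macrophage markers and 10 adipocyte markers in each library of the 4 groups, with the mean (long bar) and SD (error bar). KO isoproterenol replicate 1, marked 1, is the lowest of its group for constitutive subunits and adipocyte markers and the highest for inducible subunits and macrophage markers.

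Promoter sequences of the catalytic subunit genes Psmb8, Psmb5 and Psmb6 are shown because each held a match to the motif named with it. RefSeq windows of 250 bases before to 50 after the gene start (GRCm38.p6), a build other than that of the files, were held for 45 of the 52 genes, those of Psmb1, Psmb2, Psmb7, Psmc3, Psmd3, Psmd7 and Psmg2 being without one. Stretches upstream of the start follow, 5′ to 3′ on the gene's strand, with the match in capitals: in Psmb8 (chr17:34198058-34198146, + strand) the gamma-activated site, TTCNNNGAA, and in Psmb5 (chr14:54617996-54618082, - strand) and Psmb6 (chr11:70525308-70525356, + strand) the core of the antioxidant response element bound by Nfe2l1 and Nfe2l2, TGACNNNGC.
Psmb8: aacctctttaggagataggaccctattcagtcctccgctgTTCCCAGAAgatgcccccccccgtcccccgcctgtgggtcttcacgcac
Psmb5: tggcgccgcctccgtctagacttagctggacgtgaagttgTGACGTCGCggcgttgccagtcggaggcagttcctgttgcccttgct
Psmb6: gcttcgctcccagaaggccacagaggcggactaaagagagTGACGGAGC
Searched on both strands, the gamma-activated site was in 1 of 5 immunoproteasome and 1 of 26 constitutive windows, against 8.47% of 27025 promoter windows. The antioxidant response element core was in 0 of 5 immunoproteasome and 5 of 26 constitutive windows (Psmb5, Psmb6, Psmc6, Psmd12 and Adrm1), against 12.5% of all. The interferon regulatory factor element GAAANNGAAA was in 1 of 5 immunoproteasome (Psme1) and 2 of 26 constitutive windows, against 3.49% of all, and CCAAT in 1 of 5 and 11 of 26, against 37.9%. The windows of the inducible genes Psmb9 and Psmb10 held no gamma-activated site, antioxidant response element core or interferon regulatory factor element. The letters GAA are shared by TTCNNNGAA and GAAANNGAAA, so their matches can overlap. A match describes letters and is not a site shown to be bound.

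Of the PA28 genes, Psme2 rose with isoproterenol in WT mice, and in KO mice it passed only in some fits. Psme2, the PA28-beta gene, measured 152, 102, 124 and 144 CPM in KO isoproterenol and 86.5, 104, 92.8 and 127 CPM in KO saline libraries. It measured 188, 179.8, 154 and 153 CPM in WT isoproterenol and 108, 106, 96.8 and 84.4 CPM in WT saline libraries. The WT groups did not overlap, with a log2 fold change of 0.77 (SE 0.15, adjusted p = 0.00355), and the KO value was 0.34 (SE 0.15, adjusted p = 0.0745). The KO difference passed with libraries scaled by their totals (adjusted p = 0.0139), with library quality weights (0.033), without KO isoproterenol replicate 2 (0.0213) and without KO saline replicate 4 (0.0278). Psme1, the PA28-alpha gene, had isoproterenol differences of -0.063 (SE 0.16, adjusted p = 0.776) in KO and -0.046 (SE 0.16, adjusted p = 0.882) in WT libraries. Psme2b, whose transcript is 99.4% identical to that of Psme2 over 794 aligned bases, had log2 fold changes of 0.55 (SE 0.23, adjusted p = 0.0604) in KO and 0.79 (SE 0.23, adjusted p = 0.0318) in WT libraries. Reads of the 2 genes may have been shared, and its WT call was lost with the WT libraries paired (adjusted p = 0.0525) and without WT isoproterenol replicate 1, 3 or 4 or WT saline replicate 1 or 4 (adjusted p = 0.0599 to 0.0947). Under isoproterenol the KO minus WT difference of Psme2 was -0.38 (SE 0.15, adjusted p = 0.0531). It passed with library quality weights (adjusted p = 0.0141) and without KO isoproterenol replicate 1 or 4 (0.0269 and 0.0367).

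Among the other activators and the inhibitor, Psme4, the PA200 gene, varied widely between libraries, at 169.6 ± 52.6 CPM in KO isoproterenol, 136 ± 17.1 in KO saline, 188 ± 46.7 in WT isoproterenol and 135 ± 18.9 CPM in WT saline libraries (SD, n = 4 each). Its isoproterenol differences were 0.27 (SE 0.22, adjusted p = 0.322) in KO and 0.45 (SE 0.22, adjusted p = 0.177) in WT libraries. The WT value passed with library quality weights (adjusted p = 0.0298). Psme3, the nuclear PA28-gamma gene, had -0.22 (SE 0.14, adjusted p = 0.189) and 0.069 (SE 0.14, adjusted p = 0.776) in the same comparisons, and Psme3ip1, whose product binds PA28-gamma, 0.0065 and 0.072. Psmf1, which encodes the 20S inhibitor PI31, measured 24.8, 40.1, 31.4 and 41.98 CPM in KO isoproterenol and 25.2, 23.8, 24.04 and 20.6 CPM in WT isoproterenol libraries, against 38.8, 29.4, 38.1 and 32.5 CPM in KO saline and 30.6, 31.9, 28.98 and 28.8 CPM in WT saline libraries. All WT isoproterenol libraries lay below all WT saline libraries, but that difference missed the threshold (-0.36, SE 0.15, adjusted p = 0.117), and KO exceeded WT under isoproterenol (0.54, SE 0.15, adjusted p = 0.0101). With only the 2 groups of each comparison fitted, both calls differed. The WT difference passed (adjusted p = 0.0155, and 0.00822 with library quality weights). That between KO and WT under isoproterenol did not (adjusted p = 0.057).

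Of the 8 assembly factors 2 rose and 2 fell with isoproterenol in KO mice, and 1 fell in WT mice, shares close to the 48.6% and 16.6% of all genes called. Pomp, the maturation protein required for beta ring assembly, measured 125, 89.9, 101 and 77.9 CPM in KO isoproterenol and 66.2, 58.6, 64.8 and 77.02 CPM in KO saline libraries, without overlap, a log2 fold change of 0.55 (SE 0.14, adjusted p = 0.00508), and the WT value was 0.22 (SE 0.14, adjusted p = 0.317). Psmd10, the 19S chaperone gankyrin, had a log2 fold change of 0.45 (SE 0.14, adjusted p = 0.0162) in KO libraries, a call lost without KO isoproterenol replicate 1 (adjusted p = 0.0516) and with only the KO libraries fitted (adjusted p = 0.0842). Psmg1, of the chaperone pair that builds the alpha ring, fell to 17.6, 16.2, 17.9 and 24.2 CPM in KO isoproterenol libraries, against 31.4, 30.4, 29.6 and 35.6 CPM in KO saline libraries. Its WT isoproterenol libraries, at 30.2, 35.8, 32.2 and 33.3 CPM, and its WT saline libraries, at 30.2, 35.3, 32.5 and 30.5 CPM, also all lay above the KO isoproterenol libraries. The log2 fold change was -0.76 (SE 0.12, adjusted p = 0.000187) in KO and 0.033 (SE 0.12, adjusted p = 0.889) in WT libraries, and Psmg2, its partner in the pair, had -0.41 (SE 0.13, adjusted p = 0.0151) in KO and -0.087 in WT libraries. The Psmg2 KO call was lost without KO saline replicate 4 (adjusted p = 0.0573), with libraries scaled by their totals (-0.23, adjusted p = 0.252) and with only the KO libraries fitted (adjusted p = 0.0864). Psmg4, of the second alpha ring pair, measured 6.26, 6.40, 3.42 and 5.64 CPM in WT isoproterenol libraries, against 10.6, 11.9, 7.86 and 10.2 CPM in WT saline libraries, without overlap, a log2 fold change of -0.93 (SE 0.28, adjusted p = 0.0348). Its call was lost without WT isoproterenol replicate 3 or 4 or WT saline replicate 1, 2 or 4 (adjusted p = 0.0641 to 0.11). Psmg3, the other member of that pair, had -0.12 in KO and 0.05 in WT libraries, and the 19S chaperones Psmd5 (0.22 and 0.32) and Psmd9 (0.21 and 0.30) passed in neither genotype.

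Nfe2l1 fell with isoproterenol in KO mice. It measured 269.8, 352, 417 and 638 CPM in KO isoproterenol libraries, against 999, 812, 892 and 746 CPM in KO saline libraries. It measured 629, 606, 779.8 and 802 CPM in WT isoproterenol and 555, 686, 714 and 774 CPM in WT saline libraries. All KO isoproterenol libraries lay below all KO saline libraries, and the WT groups overlapped. The log2 fold change was -1.11 (SE 0.23, adjusted p = 0.00129) in KO and 0.045 (SE 0.23, adjusted p = 0.924) in WT libraries. Replicate 1 was again the lowest and replicate 4 the highest KO isoproterenol library; without replicate 1 the KO difference was -0.92 (adjusted p = 0.00225). The Nfe2l1 protein is activated after translation, by processing that mRNA levels do not show.

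Among 9 genes that process Nfe2l1 or act beside it, 1 rose and 2 fell in KO isoproterenol against KO saline libraries, and 1 fell in WT isoproterenol against WT saline libraries, beside 48.6% and 16.6% of all genes called in these comparisons. Ngly1, the glycanase that edits Nfe2l1 after its release from the endoplasmic reticulum, measured 33.5, 30.3, 45.5 and 56.1 CPM in KO isoproterenol and 62.7, 66.1, 62.9 and 61.5 CPM in KO saline libraries, without overlap. Its log2 fold change was -0.66 (adjusted p = 0.00359) in KO and 0.17 (adjusted p = 0.504) in WT libraries, with an interaction of -0.83 (adjusted p = 0.0175). The ubiquitin ligase adaptor Btrc, which marks nuclear Nfe2l1 for degradation, had -0.50 (adjusted p = 0.00523) in KO and -0.63 (adjusted p = 0.00441) in WT libraries. The KO call was lost with libraries scaled by their totals (-0.32, adjusted p = 0.1249). Nfe2l2, the related NRF2 gene, had 0.39 (adjusted p = 0.037) in KO and 0.41 (adjusted p = 0.0639) in WT libraries. The Nfe2l2 KO call was lost without KO isoproterenol replicate 1 or 2 or KO saline replicate 1, 2 or 3 (adjusted p = 0.0582 to 0.118). With only the 2 groups of each comparison fitted, its call was lost in KO (adjusted p = 0.137) and gained in WT (adjusted p = 0.00842). The protease gene Ddi2, which cleaves Nfe2l1, had 0.17 (adjusted p = 0.293), which passed with libraries scaled by their totals (adjusted p = 0.0314), and 0.23 (adjusted p = 0.233), and Vcp, which extracts it from the membrane, 0.18 (adjusted p = 0.31) and -0.00042 (adjusted p = 0.999). Nfe2l3, a related factor, had -0.93 (adjusted p = 0.0551) in KO and -0.88 (adjusted p = 0.131) in WT libraries. Both passed with library quality weights (adjusted p = 0.0105 and 0.00849). Of 6 VCP cofactors, Ubxn4 rose (0.39, adjusted p = 0.00711) and Ufd1 fell (-0.49, adjusted p = 0.0231) in KO isoproterenol against KO saline libraries. Of all genes, 48.6% were called in that comparison. The Ufd1 call was lost without KO isoproterenol replicate 1 or KO saline replicate 4 (adjusted p = 0.0626 to 0.0653), with libraries scaled by their totals (adjusted p = 0.0872) and with only the KO libraries fitted (adjusted p = 0.114).

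Of 12 measured proteasome-bound enzymes and shuttles, 3 rose and 3 fell in KO isoproterenol against KO saline libraries, and 2 fell in WT isoproterenol against WT saline libraries, shares close to the 48.6% and 16.6% of all genes called. Without KO isoproterenol replicate 1, and likewise with only the KO libraries fitted, the KO counts were 1 and 1. The shuttle gene Ubqln4 measured 53.3, 88.8, 92.1 and 125 CPM in KO isoproterenol and 193, 178, 191 and 176 CPM in KO saline libraries, a log2 fold change of -1.11 (adjusted p = 0.000259), and the WT value was 0.14 (adjusted p = 0.667), with an interaction of -1.24 (adjusted p = 0.00551). Its paralog Ubqln2 was called in opposite directions, 0.35 (adjusted p = 0.0182) in KO and -0.49 (adjusted p = 0.00981) in WT libraries, with an interaction of 0.84 (adjusted p = 0.0033). Its KO call was lost without KO isoproterenol replicate 1 or KO saline replicate 4 (adjusted p = 0.0506 to 0.0564) and with only the KO libraries fitted (adjusted p = 0.0831). Rad23b, another shuttle gene, rose in KO (0.67, adjusted p = 0.00091) and kept that call without any 1 library. Usp14, a deubiquitinase of the cap, fell in KO (-0.31, adjusted p = 0.0289) and WT libraries (-0.42, adjusted p = 0.0168). The Usp14 KO call was lost without KO isoproterenol replicate 1, 3 or 4 or KO saline replicate 2 or 4 (adjusted p = 0.0508 to 0.0891), with only the KO libraries fitted (adjusted p = 0.107) and with libraries scaled by their totals (-0.13, adjusted p = 0.434). Its WT call was lost without WT saline replicate 2 or 3 (adjusted p = 0.051 to 0.0626). Of 6 ubiquitin and activating enzyme genes, 2 rose in KO isoproterenol against KO saline libraries, beside 23.8% of all genes. They were Ubb (0.59, adjusted p = 0.00732) and Rps27a (0.72, adjusted p = 0.00102). Both passed the interaction, at 0.80 (adjusted p = 0.0222) for Ubb and 0.76 (adjusted p = 0.0175) for Rps27a, beside 10.9% of all genes called higher there.

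Downstream of the immunoproteasome, of 9 genes of peptide loading onto class I molecules, 7 rose in KO isoproterenol against KO saline libraries, 0 passed in WT isoproterenol against WT saline libraries, 9 were higher in KO than in WT under isoproterenol and 5 passed the interaction. Of all genes, 23.8%, 16.6%, 21.6% and 24.7% did so. In WT libraries 1 of the 9 had an unadjusted limma p under 0.05, against 30.4% of all genes. With only the 2 groups of a comparison fitted, 5 rose in KO, 2 rose and 1 fell in WT, and 5 were higher in KO than in WT under isoproterenol. Without KO isoproterenol replicate 1 the counts were 7, 8 and 5 for KO isoproterenol against KO saline, KO against WT under isoproterenol and the interaction. The macrophage and neutrophil marker sums given above were also highest in KO isoproterenol libraries, and their part in these counts was not tested. Tap1, the peptide transporter gene adjacent to Psmb9, measured 193, 73.9, 81.9 and 63.7 CPM in KO isoproterenol and 38.8, 36.6, 65.3 and 51.3 CPM in KO saline libraries. It measured 47.6, 39.8, 30.9 and 21.4 CPM in WT isoproterenol and 48.5, 47.5, 47.96 and 32.4 CPM in WT saline libraries, and replicate 1 was again the highest KO isoproterenol library. The Tap1 interaction was 1.37 (adjusted p = 0.039), those of the light chain gene B2m and the heavy chain genes H2-K1 and H2-D1 were 1.68 (adjusted p = 0.0108), 1.13 (adjusted p = 0.0347) and 1.40 (adjusted p = 0.00966), and that of the peptide loader Tapbp 1.16 (adjusted p = 0.00771). The H2-K1 call was lost without any 1 of 8 of the 16 libraries (adjusted p = 0.0545 to 0.0753) and with the WT libraries paired (adjusted p = 0.0557), and the Tap1 call without any 1 of 8 of the 16 libraries (adjusted p = 0.0559 to 0.0846).

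Of 7 measured genes that carry the interferon signal to immunoproteasome genes, 5 rose in KO isoproterenol against KO saline libraries, 0 passed in WT isoproterenol against WT saline libraries, and 6 were higher in KO than in WT under isoproterenol; in WT libraries 1 had an unadjusted limma p under 0.05. Of all genes, 23.8%, 16.6% and 21.6% were called in this way, and 30.4% had that unadjusted p in WT libraries. With only the 2 groups of a comparison fitted, 3 rose in KO, 1 fell in WT, and 3 were higher in KO than in WT under isoproterenol. Without KO isoproterenol replicate 1 the counts were 4 and 6 for KO isoproterenol against KO saline and KO against WT under isoproterenol. The class I transactivator Nlrc5 (1.17, adjusted p = 0.0309), the receptor chain Ifngr2 (1.37, adjusted p = 0.0383), the kinase Jak2 (0.99, adjusted p = 0.0373) and the transcription factor Irf1 (0.93, adjusted p = 0.036) passed the interaction, beside 10.9% of all genes called higher there. These calls were lost without any 1 of 5 (Nlrc5), 11 (Ifngr2), 12 (Jak2) or 9 (Irf1) of the 16 libraries (adjusted p = 0.0516 to 0.0791). With the WT libraries paired by number 0 of the 7 passed. In that fit 6 had an unadjusted limma p under 0.05, for which the share of all genes is not given here. The interferon-gamma gene Ifng was not analysed here.

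Psmc3ip, which acts with the recombinase Dmc1 in meiosis and is no proteasome subunit, was the lowest of the 52 genes at 2.52 CPM on average and 9 reads in its poorest library. It measured 3.54, 3.68, 2.38 and 2.38 CPM in KO isoproterenol and 1.17, 2.71, 1.34 and 1.67 CPM in KO saline libraries. It measured 3.62, 3.55, 3.62 and 4.80 CPM in WT isoproterenol and 1.19, 1.94, 0.884 and 1.87 CPM in WT saline libraries, where the groups did not overlap. Its log2 fold changes were 0.85 (SE 0.31, adjusted p = 0.0352) in KO libraries, a call lost without KO isoproterenol replicate 1 or 2 or KO saline replicate 1, 3 or 4 (adjusted p = 0.0601 to 0.105) and with only the KO libraries fitted (adjusted p = 0.0818), and 1.47 (SE 0.31, adjusted p = 0.00549) in WT libraries, the highest WT value of the 52 genes.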

How the data were processed

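Poly(A)-selected RNA of 16 brown fat samples was sequenced with a strand-marking kit as 75-base single reads, per the labels' protocols. The authors deposited log2 CPM values per gene; STAR, limma and mm39 are named in the submitters' processing notes, with versions, counting step and strand setting not given in the sources used here. Every deposited log2 value corresponded to a whole read number plus a prior of 0.5 (tolerance 1e-06), on library sizes that the authors had scaled by 0.854 to 1.25 times the total; CPM values here are 2 to the power of the deposited value and keep that prior. Groups came from titles and the treatment characteristic, because the treatment protocol text of saline samples also describes isoproterenol and 3 KO saline column headers carry other replicate numbers than the titles.

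The log2 values of 15350 genes were fitted in limma 3.58.1 (R 4.3.3, statmod 1.5.0) with 4 group means, 12 residual degrees of freedom and trended, robust moderation, and p-values were adjusted by Benjamini-Hochberg over all genes, with calls at an adjusted p under 0.05. A test for counts had been planned only in case the files held whole-number counts, but they hold log2 values. Ratios were tested by exact permutation (scipy 1.17.1). The fit was tested on simulated data for KO isoproterenol against KO saline. It recovered 25.4% of 1.5-fold, 76.1% of 2-fold and 100% of 4-fold changes, with 3 false calls among 137. The simulation gave all groups the same spread, unlike the wide KO isoproterenol group, so these rates may not hold for the data. WT libraries of the same number deviated together (r = 0.21 to 0.54 across genes), so they were treated as pairs in an alternative fit. WT isoproterenol and WT saline libraries of different number ranged from r = -0.53 to 0.37, which overlaps the same-number values, so the pairing is uncertain. Other groups were not paired by number. A call said to be lost without several libraries was lost when any 1 of them was left out. Symbols, transcript lengths (median of basic protein-coding transcripts) and promoters came from GENCODE M21 and RefSeq on GRCm38.p6. The genes described, the lists and the tests were chosen with earlier results of these data known. Genes named were the catalytic, activator and regulator genes, those with the highest and lowest value of each class, and the called genes with the largest change. Alternatives covered scaling, pseudocount, a filter on low values, weights, moderation, the samples fitted, replicate blocks and leaving out each library. Library quality weights and the blocks for WT pairs and for header numbers were chosen after seeing the data. In the KO isoproterenol group these weights were 3.37 for replicate 3 and 0.167 to 0.314 for the other replicates. Every weighted result for KO isoproterenol therefore rests mostly on replicate 3.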

Additional observations from a re-analysis of the deposited data

Results flagged for a closer look

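For 7 genes the isoproterenol difference in KO mice departed from that in WT mice by the interaction test of limma. The KO minus WT log2 difference was 1.88 for Psmb8, 0.76 for Psma5, 0.59 for Psmd2 and 0.58 for Psmc1, and it was -1.15 for Nfe2l1, -0.79 for Psmg1 and -0.61 for Psmc4. The macrophage, neutrophil and adipocyte marker sums also differed most among KO isoproterenol libraries, and their part in these 7 values was not tested.

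A single library stood far from the other 3 of its group in 2 places. Psmb5 measured 99.2 CPM in KO saline replicate 4, above the other KO saline libraries. The log2 ratio of Psmb10 to Psmb7 was -1.49 in KO saline replicate 2, below the other KO saline libraries. Chance sets apart about 1 in 20 groups by this measure, and 68 groups of values were examined.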

How the results depend on the processing

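No called gene changed direction under any alternative run. Scaling by library totals in place of the deposited scaling put the median log2 fold change of all genes at 0.18 in KO isoproterenol against KO saline, -0.13 in WT isoproterenol against WT saline, 0.27 in KO against WT under isoproterenol and 0.34 in the interaction. The constitutive medians were then 0.47, 0.11, 0.45 and 0.37 in the same order, or 0.29, 0.24, 0.18 and 0.035 above the median of all genes. Under that scaling 4 of the 52 genes (1 constitutive) were called in WT isoproterenol against WT saline, 31 (22 constitutive) in KO against WT under isoproterenol and 12 (8 constitutive, 2 immunoproteasome) in the interaction, and 2 immunoproteasome genes in KO isoproterenol against KO saline. With only the groups compared in the fit, 10 of the 52 genes (7 constitutive, 0 immunoproteasome) were called in KO isoproterenol against KO saline, 19 (13 constitutive) in WT isoproterenol against WT saline and 9 (1 immunoproteasome) in KO against WT under isoproterenol, and 4923 of all genes in WT isoproterenol against WT saline and 50 in KO saline against WT saline. With library quality weights the calls were 24 (14 constitutive, 3 immunoproteasome) and 5458 of all genes in WT isoproterenol against WT saline, 2 (1 constitutive) and 728 of all genes in KO saline against WT saline, 14 (8 constitutive, 3 immunoproteasome) and 6298 of all genes in the interaction, and 3 immunoproteasome genes in KO isoproterenol against KO saline. With WT libraries paired by a replicate block, 3 genes (0 constitutive) were called in the interaction and 5 of all genes in KO saline against WT saline; this block changed no call of the 52 genes other than those named above. A replicate block over all 16 libraries, which share only numbers outside the WT pairs (r = 0.033 to 0.24 between KO groups), called 22 genes in KO isoproterenol against KO saline, 9 in WT isoproterenol against WT saline, 17 in KO against WT under isoproterenol and 6 in the interaction. The cause of these differences was not tested.

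Leaving out 1 library at a time gave 17 to 26 called genes in KO isoproterenol against KO saline (10 to 21 constitutive, 1 to 2 immunoproteasome), 5 to 9 in WT isoproterenol against WT saline (3 to 6 and 1 to 1), 0 to 0 in KO saline against WT saline, 15 to 23 in KO against WT under isoproterenol (8 to 16 and 3 to 4) and 3 to 10 in the interaction (1 to 5 and 0 to 3). Over all genes the calls were 6650 to 8313, 1623 to 2035, 4 to 11, 5781 to 7709 and 2618 to 5666 in these comparisons. The constitutive medians were 0.23 to 0.45, 0.20 to 0.24, 0.098 to 0.19, 0.11 to 0.30 and -0.0021 to 0.19, and the immunoproteasome medians 0.20 to 0.70, -0.58 to -0.33, -0.032 to 0.12, 0.69 to 1.25 and 0.64 to 1.20. With 3 against 4 libraries no ratio can reach an exact p under 0.0571. Depth limits Psmc3ip most, at 9 reads in its poorest library.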
